A study of Mus musculus with 15 samples.

Results

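Glul, Rhbg, Slc1a2, Oat, Slc13a3, Slc22a3, Lect2, Rgn and Gulo are genes of glutamine synthesis, of transport and of the hepatocytes around the central vein. They were chosen by symbol, with earlier results of these data known. Shares over all genes are therefore given as description, not as a test of the set. These genes are 9 of the 24411 genes with counts in these livers, and all 9 are among the 14098 genes tested. Liver RNA from male FVB/NJ mice was sequenced in 5 groups of 3 libraries each. CTNNB1_NFE2L2_MET carried S45Y-CTNNB1, G31A-NFE2L2 and hMET, CTNNB1_NFE2L2 carried both mutants without hMET, CTNNB1_MET carried S45Y-CTNNB1 with hMET, NFE2L2_MET carried G31A-NFE2L2 with hMET, and WT was wild-type FVB liver. The labels give no age, time, vector, promoter or share of transgenic cells, and do not say that the libraries of a group came from separate animals. The p-values therefore measure the spread between these samples, which may be technical.

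Hepatocytes differ along the liver lobule. Those around the portal vein take up ammonia into urea and break down amino acids, while a thin layer around the central vein captures the ammonia that is left and fixes it into glutamine. β-catenin, encoded by CTNNB1, is the effector of Wnt signalling that sets this pericentral programme in normal liver, and S45 is among the phosphorylation sites that lead to its degradation. NRF2, encoded by NFE2L2, switches on antioxidant genes and is held in check by KEAP1 through the region that contains G31, and the receptor tyrosine kinase MET responds to hepatocyte growth factor. Glul makes glutamine from glutamate and ammonia, Rhbg moves ammonia, Slc1a2 takes up glutamate and Oat feeds ornithine carbon towards glutamate. Slc13a3 and Slc22a3 carry dicarboxylates and organic cations, Lect2 is a secreted hepatokine, and Rgn and Gulo catalyse the last steps of vitamin C synthesis, of which humans lack the Gulo step. Bulk RNA does not show where in the lobule a transcript lies, and in such samples fewer cells of a type and less RNA per cell cannot be told apart.

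Gene counts summed to between 14084343 and 20702618 per library, and levels are given as CPM, counts scaled to the TMM-adjusted total of the library. The 9 genes together took 0.688 to 0.787% of all gene counts in CTNNB1_NFE2L2_MET, 0.908 to 1% in CTNNB1_NFE2L2, 0.511 to 0.692% in CTNNB1_MET, 0.107 to 0.165% in NFE2L2_MET and 0.237 to 0.281% in WT. No library of the 3 groups with S45Y-CTNNB1 overlapped with a library of the other 2 groups in this share. Unmapped reads were 8.69 to 11.2% in CTNNB1_NFE2L2_MET, 9.71 to 11.8% in CTNNB1_NFE2L2, 15.8 to 19.1% in CTNNB1_MET, 12.7 to 14.2% in NFE2L2_MET and 19.8 to 25.9% in WT, and the part of this difference in the results was not tested. Hepatocyte markers were high in every library, and are given with the other cell types after the comparisons.

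Promoter sequences are shown for Glul, the glutamine synthetase gene, and for Lect2 and Slc1a2, whose windows hold a word bound by TCF/LEF factors, the DNA-binding partners of β-catenin. RefSeq promoters on GRCm38.p6, the mm10 assembly, run from 250 bases before to 50 bases after the start of a gene and were at hand for 6 of the 9 genes. Rhbg, Rgn and Gulo are named only. Each sequence runs 5′ to 3′ along the strand of its gene, in lower case with the matching word in capitals.
Glul, chr1:153899679-153899978, plus strand: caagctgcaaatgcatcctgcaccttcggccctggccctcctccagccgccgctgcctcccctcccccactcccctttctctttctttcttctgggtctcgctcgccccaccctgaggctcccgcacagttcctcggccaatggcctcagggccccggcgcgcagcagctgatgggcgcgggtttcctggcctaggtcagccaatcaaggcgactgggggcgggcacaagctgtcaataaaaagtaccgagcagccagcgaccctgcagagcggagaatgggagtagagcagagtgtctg
Lect2, chr13:56548489-56548788, minus strand: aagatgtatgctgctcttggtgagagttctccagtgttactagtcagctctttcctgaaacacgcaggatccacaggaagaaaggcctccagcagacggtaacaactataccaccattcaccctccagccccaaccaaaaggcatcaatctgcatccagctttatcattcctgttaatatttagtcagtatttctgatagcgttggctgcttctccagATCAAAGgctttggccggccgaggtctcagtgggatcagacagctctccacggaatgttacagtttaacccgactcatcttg
Slc1a2, chr2:102706188-102706487, plus strand: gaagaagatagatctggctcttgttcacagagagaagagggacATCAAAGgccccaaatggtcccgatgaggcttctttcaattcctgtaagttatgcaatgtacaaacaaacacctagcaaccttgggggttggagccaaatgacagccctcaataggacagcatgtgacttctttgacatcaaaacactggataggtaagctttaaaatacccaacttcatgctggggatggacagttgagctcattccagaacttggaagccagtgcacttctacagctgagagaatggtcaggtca
The words searched on both strands were CTTTGAT, which these promoters hold, together with the variant CTTTGAA, the variant CTTTGTA and the variant CTTTGTT. Each contains the core CTTTG. The match ATCAAAG is CTTTGAT read from the opposite strand and starts at -32 from the start site in Lect2 and at -207 in Slc1a2. At least 1 such word was present in 2 of 6 promoters here and in 16.9% of the 32851 mouse promoters of the same length. The antioxidant response core TGACNNNGC, searched on both strands, was found in 1 of 6 (Slc13a3, starting at -201) and in 12.4% of all promoters. The Slc1a2 window belongs to a start site inside the gene's longest annotated span, and no match says only that these letters are not in this window.

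Glul encodes glutamine synthetase (chromosome 1, 153899944 to 153909723, plus strand). It stood at 3046, 2985 and 2519 CPM in CTNNB1_NFE2L2_MET, at 3779, 4216 and 3768 CPM in CTNNB1_NFE2L2 and at 1984, 1848 and 1575 CPM in CTNNB1_MET. NFE2L2_MET had 344.7, 333.6 and 261.1 CPM, and WT had 594.1, 594.1 and 511.8 CPM. The 5 groups did not overlap with each other, and each step in the order CTNNB1_NFE2L2, CTNNB1_NFE2L2_MET, CTNNB1_MET, WT and NFE2L2_MET passed edgeR's quasi-likelihood F test, most narrowly between CTNNB1_NFE2L2_MET and CTNNB1_NFE2L2 (adjusted p = 0.0308). Glul was 12.5-fold higher in CTNNB1_NFE2L2 than in NFE2L2_MET, the highest and the lowest group. Its 5′ end overlaps with Teddm2 on the other strand, which had at most 1.41 CPM in any library, and with Mir8114, which had 0 counts in all 15 libraries.

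**Figure D1:**
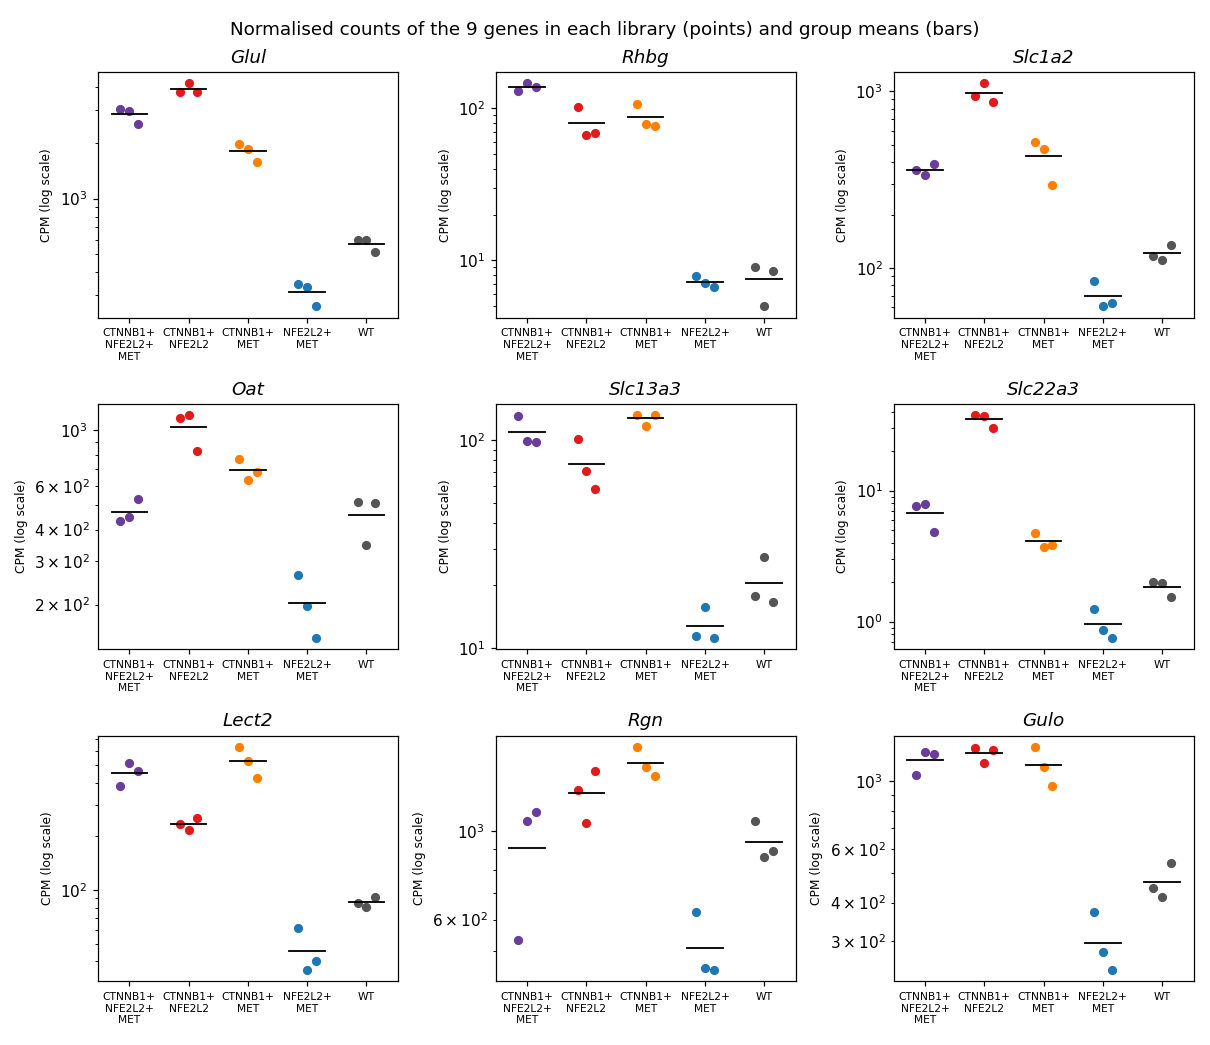
Normalised counts (CPM, log axis) of each of the 9 genes, with 1 point per library, a bar at the mean of 3 libraries, and the groups from left to right CTNNB1_NFE2L2_MET, CTNNB1_NFE2L2, CTNNB1_MET, NFE2L2_MET and WT. NFE2L2_MET has the lowest mean in every panel, and the group with the highest mean differs between panels, for example CTNNB1_NFE2L2 at 3921 CPM for Glul and CTNNB1_NFE2L2_MET at 137 CPM for Rhbg.

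Rhbg, an ammonia transporter of the Rh family (chromosome 3, 88242874 to 88254709, minus strand), had another order. Its levels were 128.8, 146 and 137.5 CPM in CTNNB1_NFE2L2_MET, 102.4, 67.04 and 68.47 CPM in CTNNB1_NFE2L2 and 106.5, 78.66 and 76.69 CPM in CTNNB1_MET. In NFE2L2_MET they were 7.838, 7.12 and 6.702 CPM, and in WT 9.06, 4.983 and 8.466 CPM. CTNNB1_NFE2L2_MET was above every other library, CTNNB1_MET and CTNNB1_NFE2L2 overlapped (adjusted p = 0.626 between them, edgeR), and so did NFE2L2_MET and WT (adjusted p = 0.905). Between CTNNB1_NFE2L2_MET and NFE2L2_MET, Rhbg differed 19.0-fold.

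Slc1a2 encodes GLT-1, a sodium-driven glutamate carrier (chromosome 2, 102658659 to 102790784, plus strand). The libraries gave 359.1, 334.5 and 389.6 CPM in CTNNB1_NFE2L2_MET, 947.5, 1115 and 874.6 CPM in CTNNB1_NFE2L2 and 517.7, 471.6 and 295.5 CPM in CTNNB1_MET. They gave 84.15, 60.75 and 63.35 CPM in NFE2L2_MET and 116.8, 111.2 and 135.1 CPM in WT. CTNNB1_NFE2L2 stood above all other libraries. CTNNB1_NFE2L2_MET and CTNNB1_MET overlapped and did not differ beyond their spread (adjusted p = 0.327, edgeR), while WT and NFE2L2_MET did (adjusted p = 0.00653). Slc1a2 had 8.09-fold higher counts in CTNNB1_NFE2L2 than in WT.

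Oat is the mitochondrial ornithine aminotransferase (chromosome 7, 132557478 to 132576398, minus strand). Counts were 434.4, 450.9 and 532 CPM in CTNNB1_NFE2L2_MET, 1124, 1154 and 824.8 CPM in CTNNB1_NFE2L2 and 768.4, 630.8 and 681.8 CPM in CTNNB1_MET, with 262.8, 197.6 and 146.5 CPM in NFE2L2_MET and 517.5, 345.8 and 513 CPM in WT. The libraries of CTNNB1_NFE2L2_MET overlapped with those of WT (adjusted p = 0.884, edgeR), unlike Glul and Slc1a2. CTNNB1_NFE2L2 and CTNNB1_MET differed narrowly (adjusted p = 0.0405), as did CTNNB1_MET and CTNNB1_NFE2L2_MET (adjusted p = 0.0494, CTNNB1_NFE2L2_MET lower). Both calls ended when 1 of several libraries was left out, with adjusted p up to 0.136 without CTNNB1_NFE2L2 replicate 2 and up to 0.142 without CTNNB1_NFE2L2_MET replicate 1. Oat lies within the annotated span of Fgfr2 on the same strand, where shared reads are uncertain, and Fgfr2 averaged 11.3 ± 3.59 CPM in CTNNB1_NFE2L2_MET and 62.0 ± 14.6 CPM in NFE2L2_MET (SD, n = 3 each), the opposite order to Oat.

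Slc13a3 encodes a sodium-driven carrier of dicarboxylates such as succinate and α-ketoglutarate (chromosome 2, 165405028 to 165473230, minus strand). It had 130.8, 98.94 and 98.37 CPM in CTNNB1_NFE2L2_MET, 101.1, 70.96 and 58.3 CPM in CTNNB1_NFE2L2 and 132.3, 117.1 and 131.9 CPM in CTNNB1_MET. It had 11.37, 15.64 and 11.11 CPM in NFE2L2_MET and 17.83, 27.29 and 16.68 CPM in WT. The 3 groups with S45Y-CTNNB1 were above all libraries of the other 2 groups. Among these 3, CTNNB1_NFE2L2_MET overlapped with both others, and CTNNB1_NFE2L2 was below CTNNB1_MET (-0.73 ± 0.21 log2, adjusted p = 0.0165, edgeR). That call was lost without CTNNB1_MET replicate 1 (adjusted p = 0.0507), CTNNB1_NFE2L2 replicate 2 (0.0646) or CTNNB1_NFE2L2 replicate 3 (0.0681) and under total-count scaling (-0.51, adjusted p = 0.0794). It was also lost without the 3 libraries marked as added, which are replicate 3 of CTNNB1_NFE2L2_MET, CTNNB1_MET and WT (0.0529).

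Slc22a3, the organic cation transporter OCT3 (chromosome 17, 12418960 to 12507704, minus strand), was the least abundant of the 9 and the one with the widest range. It stood at 7.578, 7.884 and 4.816 CPM in CTNNB1_NFE2L2_MET, 37.87, 37.31 and 30.18 CPM in CTNNB1_NFE2L2 and 4.781, 3.685 and 3.811 CPM in CTNNB1_MET. The values were 1.238, 0.8651 and 0.7446 CPM in NFE2L2_MET, where the lowest library held 13 reads, and 2.013, 1.958 and 1.539 CPM in WT. No 2 groups overlapped, and CTNNB1_NFE2L2 was 19.1-fold above WT and 36.7-fold above NFE2L2_MET. The 3′ end of Slc22a3 overlaps with the end of Plg, the plasminogen gene on the other strand, and counts without strand do not separate such reads. Plg went the other way, at 1198 ± 179 CPM in CTNNB1_NFE2L2 and 3304 ± 345 CPM in WT (SD, n = 3 each; -1.46 ± 0.15 log2, adjusted p = 1.41e-06, edgeR).

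Lect2 (chromosome 13, 56542464 to 56548502, minus strand) encodes a hepatokine, and TIE1 and MET have been described as its receptors. It was counted at 381.3, 512.7 and 466.3 CPM in CTNNB1_NFE2L2_MET, 234, 216.3 and 252.4 CPM in CTNNB1_NFE2L2 and 635.3, 530.1 and 425 CPM in CTNNB1_MET. NFE2L2_MET libraries had 61.7, 35.73 and 40.04 CPM, and WT libraries 85.13, 80.5 and 91.85 CPM. CTNNB1_NFE2L2 lay between the groups with S45Y-CTNNB1 and hMET and the WT libraries, without overlap on either side. CTNNB1_NFE2L2_MET and CTNNB1_MET overlapped (adjusted p = 0.375, edgeR).

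Rgn encodes regucalcin, the gluconolactonase of vitamin C synthesis (chromosome X, 20549787 to 20562089, plus strand), and varied least, 2.90-fold between the highest and the lowest group. Its levels were 534.5, 1062 and 1115 CPM in CTNNB1_NFE2L2_MET, 1265, 1047 and 1416 CPM in CTNNB1_NFE2L2, 1626, 1443 and 1374 CPM in CTNNB1_MET, 627.5, 454.2 and 448.1 CPM in NFE2L2_MET and 1060, 860.3 and 891.1 CPM in WT. Replicate 1 of CTNNB1_NFE2L2_MET was about level with NFE2L2_MET, while its other two replicates reached WT or more. None of the neighbours CTNNB1_MET, CTNNB1_NFE2L2, WT and CTNNB1_NFE2L2_MET in the order of means passed the test against the next (adjusted p = 0.154 to 0.872, edgeR).

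Gulo encodes L-gulonolactone oxidase, the last enzyme of vitamin C synthesis (chromosome 14, 65986786 to 66009207, minus strand). It had 1044, 1243 and 1224 CPM in CTNNB1_NFE2L2_MET, 1284, 1148 and 1259 CPM in CTNNB1_NFE2L2 and 1294, 1112 and 964.5 CPM in CTNNB1_MET. It had 371.8, 276.2 and 240.7 CPM in NFE2L2_MET and 445.6, 417.3 and 539.7 CPM in WT. The 3 groups with S45Y-CTNNB1 overlapped with each other and stood above all other libraries. The 95% intervals of the 3 differences between them reached from -0.42 to 0.48 log2 at most.

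Divided by merged exon length, the 9 genes covered a wide range of levels. Glul had 1180 CPM per kb in CTNNB1_NFE2L2, against 170.5 CPM per kb in WT, where Rgn at 583.1, Gulo at 206.6 and Oat at 194.4 CPM per kb were higher. In CTNNB1_MET, Rgn was first at 921.6 CPM per kb, followed by Lect2 at 576.8 and Glul at 542.6. Slc22a3 was last in every group, with 7.78 CPM per kb in CTNNB1_NFE2L2 and 0.407 CPM per kb in WT.

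The addition of CTNNB1 was read from CTNNB1_NFE2L2_MET against NFE2L2_MET, which both carry G31A-NFE2L2 and hMET. All 9 genes were higher in CTNNB1_NFE2L2_MET at an adjusted p under 0.05 (edgeR), where 30.7% of the tested genes were called in either direction and 16.4% were called higher. Their median log2 fold change was 2.82, against 0.01 for all tested genes. The libraries of the compared groups did not overlap for 8 of the 9, Rgn being the exception, against 47% of all tested genes. Log2 fold changes ± SE were 4.25 ± 0.23 for Rhbg, 3.31 ± 0.20 for Lect2, 3.19 ± 0.16 for Glul, 3.11 ± 0.24 for Slc13a3 and 2.82 ± 0.24 for Slc22a3. The rest were smaller, with 2.38 ± 0.19 for Slc1a2, 1.98 ± 0.17 for Gulo, 1.22 ± 0.21 for Oat and 0.83 ± 0.23 for Rgn. Adjusted p ran from 1.5e-08 for Glul to 0.0126 for Rgn. The Rgn call ended without CTNNB1_NFE2L2_MET replicate 2 (adjusted p = 0.058), CTNNB1_NFE2L2_MET replicate 3 (0.0577), NFE2L2_MET replicate 2 (0.0529) or NFE2L2_MET replicate 3 (0.0512), with only the libraries of both groups (0.0712) and without the libraries marked as added (0.0796). Over all genes 2314 were higher and 2011 lower, against 6133 and 795 when libraries were scaled by total counts, which moved the all-gene median to 0.38.

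The addition of NFE2L2 was read from CTNNB1_NFE2L2_MET against CTNNB1_MET, and here the 9 genes went different ways. Of the 9, 3 were higher and 2 lower, against 33.8% of tested genes called in either direction, 18.4% higher and 15.4% lower, so that a call was common in this comparison. Glul (0.66 ± 0.15, adjusted p = 0.00271), Rhbg (0.66 ± 0.19, adjusted p = 0.0166) and Slc22a3 (0.72 ± 0.20, adjusted p = 0.0111) were higher, and Oat (-0.55 ± 0.21, adjusted p = 0.0494) and Rgn (-0.71 ± 0.23, adjusted p = 0.025) were lower, all by edgeR. The groups did not overlap for 5 of the 9 genes, the same 5 that were called, against 49.6% of all tested genes. Slc1a2 (-0.25), Slc13a3 (-0.22), Lect2 (-0.23) and Gulo (0.06) did not pass, and their 95% intervals lay within -0.67 and 0.41. Slc1a2 was called lower without CTNNB1_MET replicate 3 (-0.45, adjusted p = 0.0454, edgeR) and without the libraries marked as added (-0.51, adjusted p = 0.0422), and stood at 0.01 under total-count scaling.

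The Glul call held in every setting tried, and the other 4 calls did not. Rhbg lost its call without CTNNB1_MET replicate 2 (adjusted p = 0.069), CTNNB1_MET replicate 3 (0.0719) or CTNNB1_NFE2L2_MET replicate 2 (0.0537), and without the libraries marked as added (0.57, adjusted p = 0.121). Slc22a3 lost it without CTNNB1_NFE2L2_MET replicate 2 (0.0534) and on either strand column, which each hold fewer reads (0.059 and 0.0931). For Rgn this was so without CTNNB1_MET replicate 1 (0.0771), CTNNB1_MET replicate 2 (0.0542) or CTNNB1_NFE2L2_MET replicate 1 (0.0825), with only the libraries of both groups (0.0607) and under total-count scaling (-0.45, adjusted p = 0.143). Oat lost its call in 9 of the 15 leave-outs, with no filter on low counts (0.0505), without the libraries marked as added (0.0906) and under total-count scaling (-0.29, adjusted p = 0.304). Members called numbered 3 without CTNNB1_NFE2L2_MET replicate 1 or CTNNB1_MET replicate 1, and 2 without CTNNB1_NFE2L2_MET replicate 2 or CTNNB1_MET replicate 2. Total-count scaling, under which the all-gene median was 0.26, gave 4970 genes higher and 1038 lower, against 2597 and 2168, and left Glul, Rhbg and Slc22a3 called.

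The addition of MET was read from CTNNB1_NFE2L2_MET against CTNNB1_NFE2L2. Rhbg (0.79 ± 0.19, adjusted p = 0.00825) and Lect2 (0.95 ± 0.19, adjusted p = 0.00198) were higher. Slc22a3 (-2.38 ± 0.19, adjusted p = 1.77e-06), Slc1a2 (-1.44 ± 0.19, adjusted p = 0.000107), Oat (-1.13 ± 0.21, adjusted p = 0.00131) and Glul (-0.46 ± 0.15, adjusted p = 0.0308) were lower. That is 2 higher and 4 lower of 9 by edgeR, where 25% of tested genes were called, 13.1% higher and 11.8% lower. Slc13a3 (0.51, adjusted p = 0.0946), Rgn (-0.46, adjusted p = 0.156) and Gulo (-0.07, adjusted p = 0.79) did not pass. The groups did not overlap for 6 of the 9 genes, the same 6 that were called, against 43.7% of all tested genes. Leaving out 1 library ended the Glul call 4 times, namely CTNNB1_NFE2L2 replicate 2 (adjusted p = 0.112), CTNNB1_NFE2L2 replicate 3 (0.058), CTNNB1_NFE2L2_MET replicate 2 (0.0564) and CTNNB1_NFE2L2_MET replicate 3 (0.112). The Glul call also ended when the added mark entered the fit as a term (adjusted p = 0.051), without the libraries so marked (0.0977) and under total-count scaling (0.0708). Without CTNNB1_NFE2L2 replicate 1, Slc13a3 passed as higher (0.76, adjusted p = 0.018). The other 5 calls held in every leave-out. The 3 comparisons of an added transgene share the CTNNB1_NFE2L2_MET libraries.

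**Figure D2:**
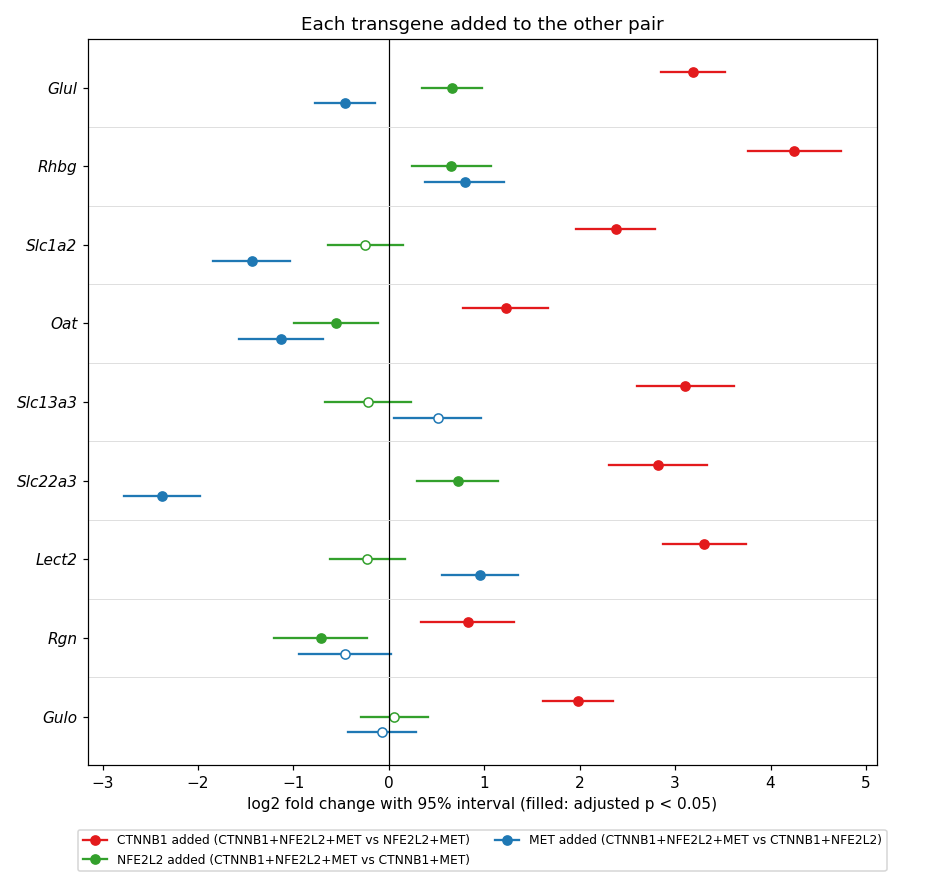
Log2 fold change (x axis) with its 95% interval for each of the 9 genes (rows) when CTNNB1, NFE2L2 or MET is added to the other pair, filled where the adjusted p is under 0.05. The CTNNB1 points all lie to the right of 0, from 0.83 for Rgn to 4.25 for Rhbg, while the NFE2L2 and MET points lie on both sides, with Slc22a3 at -2.38 for MET.

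Against WT, the groups with S45Y-CTNNB1 had most of the 9 genes higher. In CTNNB1_NFE2L2_MET 7 were higher, where 49.9% of tested genes were called and 26.5% were higher, and Oat (0.04) and Rgn (-0.05) did not pass. In CTNNB1_NFE2L2 8 were higher, where 48.7% were called and 24.5% were higher, and Rgn (0.41, adjusted p = 0.154, edgeR) did not pass, although it did without CTNNB1_NFE2L2_MET replicate 1 (adjusted p = 0.0432). In CTNNB1_MET 7 were higher, where 17.2% were called and 11% were higher, and Oat (0.60) and Rgn (0.66) both missed at an adjusted p of 0.0587 although neither overlapped with WT. DESeq2 called both higher (adjusted p = 0.03 for Oat and 0.0261 for Rgn). For Oat the call appeared without NFE2L2_MET replicate 1 (adjusted p = 0.0401) or NFE2L2_MET replicate 3 (0.0391), and for Rgn without CTNNB1_NFE2L2_MET replicate 1 (0.00972). These comparisons share the WT libraries.

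Rhbg had the largest change against WT in CTNNB1_NFE2L2_MET (4.20 ± 0.23, 18.4-fold) and in CTNNB1_MET (3.55 ± 0.22, 11.7-fold), while Slc22a3 had it in CTNNB1_NFE2L2 (4.25 ± 0.22). Glul was 5.03-fold higher in CTNNB1_NFE2L2_MET, 6.92-fold in CTNNB1_NFE2L2 and 3.18-fold in CTNNB1_MET. Gulo gave 1.32 ± 0.17, 1.40 ± 0.17 and 1.27 ± 0.17 log2 in the same groups. Total-count scaling gave 5226 genes higher and 1892 lower in CTNNB1_NFE2L2_MET, against 3739 and 3300, and 4507 and 2127 in CTNNB1_NFE2L2, against 3456 and 3411.

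NFE2L2_MET, the group without S45Y-CTNNB1, had 8 of the 9 genes below WT, where 23.4% of tested genes were called and 9.89% were lower. Oat was lowest relative to WT (-1.18 ± 0.21, adjusted p = 0.000933), and Glul (-0.86 ± 0.15, adjusted p = 0.00075), Slc1a2 (-0.80 ± 0.19), Lect2 (-0.91 ± 0.19), Rgn (-0.88 ± 0.23), Gulo (-0.66 ± 0.17), Slc13a3 (-0.70 ± 0.23) and Slc22a3 (-0.94 ± 0.28) were also lower by edgeR. Rhbg did not pass (-0.05 ± 0.23, adjusted p = 0.905), with a 95% interval from -0.54 to 0.44. The groups did not overlap for 8 of the 9 genes, the same 8 that were called, against 37.2% of all tested genes. Without NFE2L2_MET replicate 3 only 4 of the 9 were called, and Gulo (adjusted p = 0.0581), Rgn (0.0567), Slc22a3 (0.0972) and Slc13a3 (0.13) were not. Slc22a3 also lost its call without NFE2L2_MET replicate 2 (0.0681), WT replicate 1 (0.0696) or WT replicate 2 (0.0617), and Slc13a3 in 8 leave-outs, with the highest adjusted p, 0.166, without WT replicate 2. Under total-count scaling 1372 genes were higher and 2517 lower, against 1909 and 1394, with an all-gene median of -0.13, and the 8 members were still called. Other settings ended the calls of Slc22a3 and Slc13a3. Slc22a3 did not pass on either strand column (adjusted p = 0.0649 and 0.252, edgeR) or with only the libraries of both groups (0.0867). Slc13a3 did not pass on the second strand column (-0.53, adjusted p = 0.18), with only the libraries of both groups (0.0706), with no filter on low counts (0.0628) or without the libraries marked as added (0.0517).

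**Figure D3:**
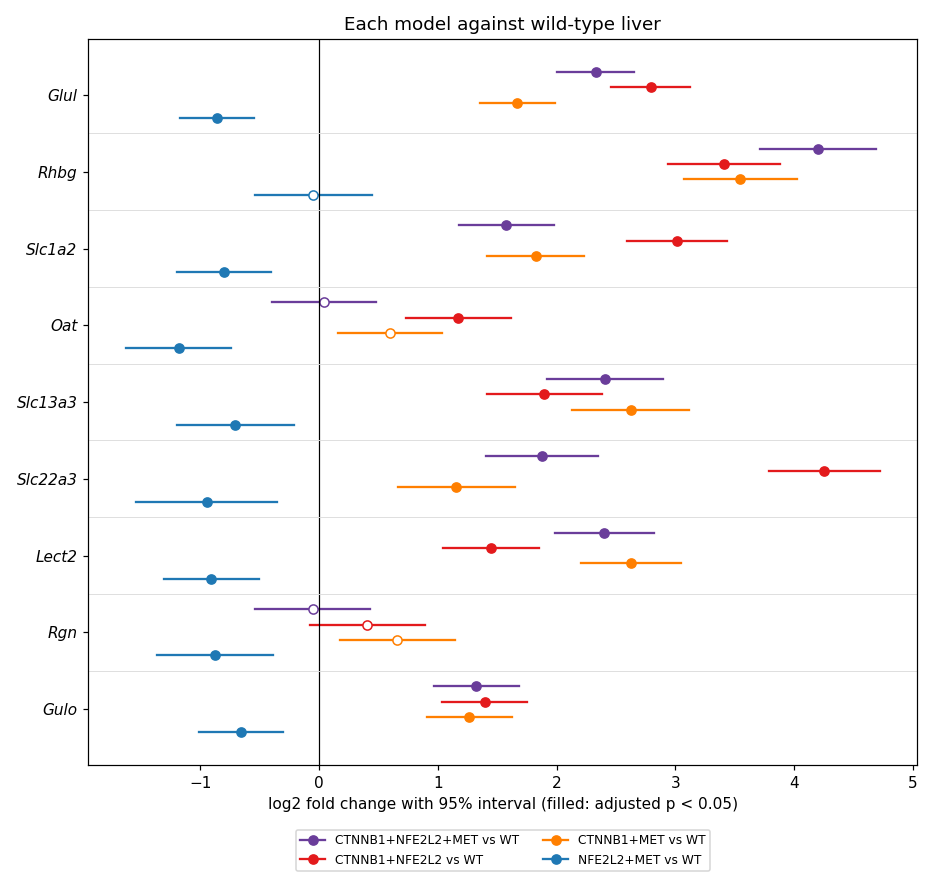
Log2 fold change against WT (x axis) with its 95% interval for each of the 9 genes (rows) in CTNNB1_NFE2L2_MET, CTNNB1_NFE2L2, CTNNB1_MET and NFE2L2_MET, filled where the adjusted p is under 0.05. NFE2L2_MET lies below 0 for each gene, from -0.05 for Rhbg to -1.18 for Oat, and Slc22a3 spans the widest range, reaching 4.25 in CTNNB1_NFE2L2.

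All 9 genes were also higher in CTNNB1_MET than in NFE2L2_MET, where 14.3% of tested genes were called and 6.96% were higher, and in CTNNB1_NFE2L2 than in NFE2L2_MET, where 37.2% were called and 18.3% were higher. These groups differ in 2 transgenes each. Total-count scaling gave 1434 genes higher and 682 lower in CTNNB1_MET against NFE2L2_MET, where TMM gave 981 and 1037, and 5154 and 1135 in CTNNB1_NFE2L2 against NFE2L2_MET, where TMM gave 2579 and 2660.

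Set against CTNNB1_MET, CTNNB1_NFE2L2 had 4 of the 9 genes higher and 2 lower, where 35.1% of tested genes were called, 17.9% higher and 17.2% lower. Slc22a3 (3.10 ± 0.20, 8.57-fold), Slc1a2 (1.19 ± 0.19), Glul (1.12 ± 0.15) and Oat (0.58 ± 0.21) were higher, and Lect2 (-1.18 ± 0.19) and Slc13a3 (-0.73 ± 0.21) were lower. Rhbg (-0.14), Rgn (-0.25) and Gulo (0.13) did not pass. Slc1a2, which brings in glutamate, and Oat, whose product leads to glutamate, had the same direction as Glul here. The Oat call was lost in 6 leave-outs and without the libraries marked as added (adjusted p = 0.105, edgeR). Of 14 other genes around glutamate, ornithine and proline, 1 was higher, 6 were lower and 7 did not pass (median log2 -0.44). Total-count scaling gave 4043 genes higher and 1300 lower, against 2530 and 2424.

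Other genes of these pathways were taken from lists, which were also chosen with earlier results of these data known. Counts here and for the cell type markers are for CTNNB1_NFE2L2_MET against NFE2L2_MET unless another comparison is named. Between these groups 30.7% of tested genes were called and 16.4% were higher. Of 12 β-catenin targets all 12 were higher (median log2 3.23), with the smallest p for Nkd1, an inhibitor of Wnt signalling (5.25 ± 0.25), and Sp5, a transcription factor (4.70 ± 0.27). Of 16 other pericentral genes 6 were higher, 1 was lower and 9 did not pass (median 0.42). Those higher include Axin2 and Lgr5, which are also counted among the β-catenin targets. Ahr, the aryl hydrocarbon receptor (2.29 ± 0.17), and Axin2, a scaffold of β-catenin destruction that is on both lists (3.48 ± 0.25), were higher, and the cytochrome Cyp2c29 was lower (-2.44 ± 0.44), although its near-identical copies make its counts uncertain.

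Periportal genes of nitrogen metabolism stood opposite to Glul when CTNNB1 was added to G31A-NFE2L2 and hMET. In CTNNB1_MET against NFE2L2_MET, where Glul was 5.76-fold higher, 1 was higher, 1 was lower and 8 did not pass. The counts that follow are again for CTNNB1_NFE2L2_MET against NFE2L2_MET. Of 10 tested, 8 were lower and 2 did not pass (median -1.91). Ass1, a urea cycle gene also on this list, was too low to test. It averaged 0.18 CPM in WT and 0.19 CPM in CTNNB1_MET, its highest mean, and the cause of these low counts was not tested. Arg1, which splits arginine into urea and ornithine, averaged 439 ± 71.9 CPM in CTNNB1_NFE2L2_MET and 2442 ± 188 CPM in NFE2L2_MET (SD, n = 3 each), and Uroc1, an enzyme of histidine breakdown, averaged 80.7 ± 19.7 and 460.1 ± 41.0 CPM in the same order. Gls2, the liver glutaminase that runs the reverse of glutamine synthesis, was lower (-2.22 ± 0.45, adjusted p = 0.00278, edgeR), and so was Cps1, the entry enzyme of the urea cycle (-1.93 ± 0.37, adjusted p = 0.00152). Gls2 averaged 42.3 ± 21.1 CPM in CTNNB1_NFE2L2_MET, 48.2 ± 25.1 in CTNNB1_NFE2L2, 190.2 ± 41.0 in CTNNB1_MET, 197 ± 20.2 in NFE2L2_MET and 279.5 ± 77.3 in WT. The low Gls2 levels were thus in the 2 groups with both mutants, while Glul was also high in CTNNB1_MET. For NFE2L2 added 9 of these 10 genes were lower, against 15.4% of tested genes, and for MET added 1 of 10, against 11.8%.

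Of 14 genes around glutamate, ornithine and proline, 3 were higher, 2 were lower and 9 did not pass (median 0.02), where 30.7% of all tested genes were called. Glud1, glutamate dehydrogenase, was higher (0.81 ± 0.13), as was Aldh18a1 of proline synthesis (1.29 ± 0.31), and Prodh2 (-0.67 ± 0.14) of hydroxyproline breakdown and the alanine transaminase Gpt (-0.61 ± 0.15) were lower. Prodh2 and Gpt did not pass under total-count scaling (adjusted p = 0.0889 and 0.193). Among 10 enzymes that use glutamine as a nitrogen donor 4 were higher and 1 lower, with Asns, asparagine synthetase, at 2.45 ± 0.38, Ctps of cytidine synthesis at 0.79 ± 0.17 and Nadsyn1 of NAD synthesis at -0.63 ± 0.11 (adjusted p = 0.0749 under total-count scaling).

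Carriers of amino acids split. Of 15 tested, 6 were higher, 3 lower and 6 did not pass (median 0.65). Slc1a5, a glutamine carrier of proliferating cells and of the family of Slc1a2, was higher (3.23 ± 0.21), as was the large neutral amino acid carrier Slc7a5 (1.96 ± 0.21). The hepatocyte glutamine carrier Slc38a3 was lower (-1.38 ± 0.17), with 689 ± 94.7 CPM in CTNNB1_NFE2L2_MET and 1794 ± 189 CPM in NFE2L2_MET, and so was Slc38a4 (-1.15 ± 0.23). Slc1a5 was also higher when NFE2L2 was added (1.46 ± 0.18, adjusted p = 3.21e-05), with 28.4 ± 4.68 CPM in CTNNB1_NFE2L2_MET and 10.4 ± 1.05 CPM in CTNNB1_MET, a comparison in which Slc1a2 did not pass. For ammonia and water channels 1 of 4 tested was higher, Aqp9, a channel for glycerol and urea (0.65 ± 0.11), and 1 lower, Aqp8 (-1.80 ± 0.33). Rhag, a relative of Rhbg, averaged 0.016 ± 0.028 CPM in CTNNB1_NFE2L2_MET and 1.15 ± 0.38 CPM in CTNNB1_NFE2L2 (SD, n = 3 each) and was at 0 in the other 9 libraries. Rhcg, another relative, averaged 0.017 ± 0.030 CPM in CTNNB1_MET and was at 0 in the other 12 libraries.

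Relatives of the other transporters did not follow them as families. Of 3 tested Slc13 genes 0 passed by edgeR, 1 had an unadjusted p under 0.05 and 1 was called by DESeq2, and their median was 0.17, against 3.11 for Slc13a3. Of 13 Slc22 genes 3 were higher and 3 lower, among them Slc22a23 (0.71 ± 0.11), which was higher, and the organic anion transporter Slc22a7 (-2.62 ± 0.47) and Slc22a28 (-1.43 ± 0.33), which were lower.

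Of 6 further genes of vitamin C synthesis and uptake 2 were higher and 2 lower. Ugdh, which makes the glucuronate precursor, was higher (0.76 ± 0.17), as was the reductase Akr1a1 that makes L-gulonate (0.50 ± 0.12), and the vitamin C carriers Slc23a1 (-0.60 ± 0.18, adjusted p = 0.0204) and Slc23a2 (-0.56 ± 0.18, adjusted p = 0.03) were lower. Slc23a1 lost its call without CTNNB1_NFE2L2_MET replicate 1 (adjusted p = 0.0531) or NFE2L2_MET replicate 1 (0.09), and Slc23a2 in 4 leave-outs, with the highest adjusted p, 0.101, without NFE2L2_MET replicate 1. Under total-count scaling neither passed, with Slc23a1 at -0.24 (adjusted p = 0.313) and Slc23a2 at -0.20 (0.407). With only the libraries of both groups Slc23a1 lost its call (0.0947), and Slc23a2 lost it on the first strand column (0.0639) and without the libraries marked as added (0.0606). Ugdh averaged 1158 ± 45.5 CPM in CTNNB1_NFE2L2_MET, 1247 ± 67.2 in CTNNB1_NFE2L2, 126 ± 6.33 in CTNNB1_MET, 685 ± 197 in NFE2L2_MET and 152 ± 19.5 in WT. Ugdh was thus high in the 3 groups with G31A-NFE2L2, while Gulo at the other end of the pathway was high in the 3 groups with S45Y-CTNNB1. Of the receptors of Lect2, Tie1 was lower (-0.55 ± 0.16, adjusted p = 0.014), a call that was lost without CTNNB1_NFE2L2_MET replicate 1 (0.0705) and under total-count scaling (-0.18, adjusted p = 0.347), and mouse Met did not pass (-0.05 ± 0.15, adjusted p = 0.851). How far reads of hMET were counted under mouse Met was not tested.

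**Figure D4:**
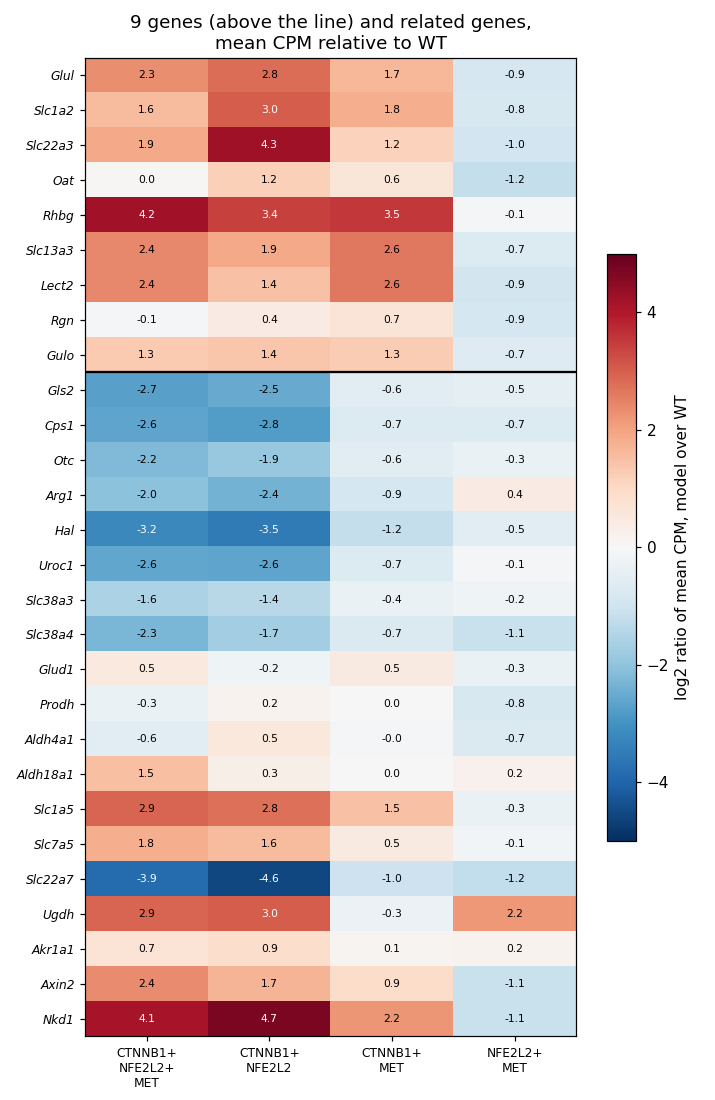
Log2 ratio of mean CPM in CTNNB1_NFE2L2_MET, CTNNB1_NFE2L2, CTNNB1_MET and NFE2L2_MET (columns) over WT for the 9 genes (above the line) and related genes (below it), with the value in each cell. The 9 genes are mostly above WT in the first 3 columns and below it in the last, while Gls2, Cps1, Hal and Uroc1 are lowest in the first 2 columns and Ugdh is low in CTNNB1_MET.

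Markers of cell types moved with the groups, and their part in the results was not tested. Of 12 hepatocyte markers, Alb being the most abundant, 9 were lower and 3 did not pass in CTNNB1_NFE2L2_MET against NFE2L2_MET, and none was at 0. Their summed level was 72540 to 80630 CPM in CTNNB1_NFE2L2_MET, 33310 to 41730 in CTNNB1_NFE2L2, 135700 to 144800 in CTNNB1_MET, 145200 to 196300 in NFE2L2_MET and 82260 to 108000 in WT. Glul, Slc1a2 and Slc22a3 were highest in the group with the lowest hepatocyte sum, and the 9 genes had their lowest means in the group with the highest. CTNNB1_MET went the other way, with a hepatocyte sum above that of WT and higher means than WT for all 9 genes. Alb weighed heavily in this sum, averaging 97470 CPM in CTNNB1_MET and 50870 CPM in WT. Of the 12 markers 2 were higher in CTNNB1_MET than in WT and 10 did not pass (median log2 -0.11). Between these groups 17.2% of tested genes were called and 11% were higher. Of 8 cell cycle genes, led in level by Mki67, all 8 were higher in CTNNB1_NFE2L2_MET than in NFE2L2_MET. Their sums were 183 to 248.3 CPM in CTNNB1_NFE2L2_MET, 143.2 to 174 in CTNNB1_NFE2L2, 55.49 to 79.72 in CTNNB1_MET, 17.57 to 30.64 in NFE2L2_MET and 12.06 to 15.82 in WT. Cell cycle sums and Rhbg both had CTNNB1_NFE2L2_MET first and the 3 groups with S45Y-CTNNB1 above NFE2L2_MET and WT. They differed in the order of CTNNB1_NFE2L2 and CTNNB1_MET and of NFE2L2_MET and WT, pairs in which Rhbg did not pass the test.

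Markers of immune cells were also higher when CTNNB1 was added. Of 9 macrophage genes, led in level by the Kupffer cell gene Clec4f, 6 were higher and 3 did not pass, with sums of 554.4 to 802.9 CPM in CTNNB1_NFE2L2_MET, 549.9 to 758.7 in CTNNB1_NFE2L2, 355.9 to 436.1 in CTNNB1_MET, 482.1 to 575.6 in NFE2L2_MET and 249.1 to 286.5 in WT. Sums of 8 T and NK cell genes were 9.375 to 11.93 CPM in CTNNB1_NFE2L2_MET, 4.78 to 7.294 in CTNNB1_NFE2L2, 6.165 to 9.808 in CTNNB1_MET, 3.593 to 4.296 in NFE2L2_MET and 2.758 to 4.314 in WT, with 5 of 7 tested higher. Of 4 B cell genes 3 were higher, and their sums stayed at or under 5.741 CPM in every library.

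Stromal and biliary markers differed less uniformly. Of 8 endothelial genes 3 were lower and 5 did not pass, with sums of 181.8 to 210.9 CPM in CTNNB1_NFE2L2_MET and 251.6 to 267 CPM in NFE2L2_MET. Wnt2, Wnt9b and Rspo3, the signals that central vein endothelium sends to pericentral hepatocytes, summed to 3.021 to 4.807 CPM in CTNNB1_NFE2L2_MET, 1.672 to 4.638 in CTNNB1_NFE2L2, 4.352 to 6.449 in CTNNB1_MET, 5.499 to 8.132 in NFE2L2_MET and 6.11 to 10.2 in WT, and 1 of 3, Rspo3, was lower. Of 8 stellate and fibroblast genes 1 was higher and 1 lower, and of 6 cholangiocyte genes 1 was higher and 2 lower. Pancreatic acinar and kidney tubule genes were too low to test, with sums of at most 0.1996 and 0.3559 CPM in any library.

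The nearest profiles to each gene were sought among the 8528 other tested genes whose log2 CPM averaged 3 or more, by the root mean square difference of the centred log2 CPM over the 15 libraries. Nearest to Glul were Pcp4l1 (0.33), Slc1a5 (0.39), Lhpp (0.48), Slc16a11 (0.50) and Axin2 (0.51), where Glul itself had an SD of 1.45 log2 over the libraries. Pcp4l1 was also nearest to Slc1a2 (0.29) and to Slc22a3 (0.67), with 40.7 ± 5.34 CPM in CTNNB1_NFE2L2_MET, 80.5 ± 1.35 in CTNNB1_NFE2L2, 33.2 ± 10.1 in CTNNB1_MET, 5.31 ± 1.35 in NFE2L2_MET and 8.62 ± 1.33 in WT. Notum, a secreted Wnt inhibitor, had the closest match of all, 0.16 from Gulo. The amino acid carrier Slc16a10 was nearest to Oat (0.24), Slco1b2, a hepatic anion uptake carrier, to Rgn (0.32), Nxpe2 to Rhbg (0.47), Tnfrsf19 to Lect2 (0.48) and the retinol dehydrogenase Rdh9 to Slc13a3 (0.53).

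Among the 9 genes themselves, the closest pairs by the same measure were Glul with Slc1a2 (0.40), Slc13a3 with Lect2 (0.42) and Oat with Rgn (0.46), and the farthest was Rhbg with Rgn (1.59). The means fell into several orders. Glul, Slc1a2, Oat and Slc22a3 were highest in CTNNB1_NFE2L2, Slc13a3, Lect2 and Rgn had their highest mean in CTNNB1_MET, Rhbg was highest in CTNNB1_NFE2L2_MET, and Gulo did not separate these 3 groups. For Slc13a3 and Rgn, and for Lect2 against CTNNB1_NFE2L2_MET, the top place was not beyond the spread. The top places of Glul, Oat and Rhbg passed the test, but each lost its call against the next group in some leave-outs. NFE2L2_MET had the lowest mean for all 9, below WT for 8 by the test.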

How the data were processed

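PolyA RNA from fresh frozen liver was isolated with the RNeasy Mini kit, per the labels. The authors deposited gene counts for each of the 15 libraries. Trimmomatic, STAR and mm10 are named in the submitters' processing notes, with versions and annotation release not given in the sources used here. The unstranded count column was used. The first strand column held 49.7 to 49.9% of the counts of both strand columns in each library, so the libraries show no strand. Reads of genes that overlap on opposite strands therefore cannot be told apart in any column. Apart from genes with such an overlap, a rerun on 1 strand column is a rerun with fewer reads. Replicate numbers follow the order of the samples and pair nothing.

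Counts of 24411 genes were filtered by group (filterByExpr, 14098 kept), scaled by TMM and fitted with group as the only factor over all libraries, then tested with the quasi-likelihood F test (robust) of edgeR 4.0.16 in R 4.3.3. Benjamini-Hochberg adjustment ran over all tested genes, with a threshold of 0.05. Standard errors come from the F statistic. Levels are CPM. Gene positions are from GENCODE on GRCm38. Alternatives were RLE and total-count scaling, no filter, each strand column, DESeq2 1.42.0, only the groups compared, a term for, or removal of, 3 libraries with an ADDED mark (WT, CTNNB1_MET and CTNNB1_NFE2L2_MET replicate 3), and leaving out each library. Chi-square per gene between replicates was 13.2 to 108, so none was a duplicate.

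Genes named besides the 9 are up to 2 per direction with the smallest p in each pathway list when CTNNB1 was added, Gls2, Cps1, Ugdh and Met, and the nearest profiles; 1 gene that met this rule is not reported here. Overlapping genes and the gene values in other comparisons were added after they were seen. Lgr5 is named only as a gene on both the pericentral and β-catenin lists, and Ass1 only as a gene too low to test. The 9 genes and the lists were chosen with earlier results of these data known.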

Additional observations from a re-analysis of the deposited data

How the results depend on the processing

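No paired analysis was possible because replicate numbers here only follow sample order. Over the genes named, 3140 values had the same direction and side of the threshold, 89 lost a call, 13 gained a call and 19 changed sign, all of the last on values without a call. The all-gene counts that moved by over 1.5 times were 6928 genes for CTNNB1 added under total-count scaling (4325 under TMM), and with only the groups compared 1505 in CTNNB1_MET against WT (2429) and 2115 in NFE2L2_MET against WT (3303). Leaving out 1 library gave 1294 to 2588 genes in CTNNB1_MET against WT (lowest without CTNNB1_MET replicate 1), 2137 to 3444 in NFE2L2_MET against WT (lowest without NFE2L2_MET replicate 3), 2259 to 3842 for MET added (lowest without CTNNB1_NFE2L2 replicate 2) and 1343 to 2206 in CTNNB1_MET against NFE2L2_MET (lowest without CTNNB1_MET replicate 2). It gave 2 to 5 of the 9 genes for NFE2L2 added, where total-count scaling gave 3, and 4 to 8 in NFE2L2_MET against WT.

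Total-count scaling turned the sign for NFE2L2 added of Slc1a2 (0.011), Slc13a3 (0.046) and Lect2 (0.034), of Rgn in CTNNB1_NFE2L2_MET against WT (0.182), of Rhbg in CTNNB1_NFE2L2 against CTNNB1_MET (0.072) and of Met for CTNNB1 added (0.322). Without the libraries marked as added it turned for Gulo with NFE2L2 added (-0.073) and Rhbg in NFE2L2_MET against WT (0.055). Leaving out 1 library gave -0.039 to 0.172 for Gulo with NFE2L2 added, -0.119 to 0.005 for Gulo with MET added, -0.098 to 0.005 for Met with CTNNB1 added, -0.23 to 0.218 for Rgn and -0.118 to 0.137 for Oat in CTNNB1_NFE2L2_MET against WT, -0.284 to 0.106 for Rhbg in NFE2L2_MET against WT and -0.364 to 0.03 for Rhbg in CTNNB1_NFE2L2 against CTNNB1_MET. The cause was not tested. With the shorter core CTTTG the share of promoters with a match was 53.9%. The low counts of Slc22a3 limit its precision.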

Other observations

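Asns, asparagine synthetase, averaged 43.5 ± 22.2 CPM in CTNNB1_NFE2L2_MET, 2.87 ± 1.18 CPM in CTNNB1_NFE2L2, 4.87 ± 1.74 CPM in CTNNB1_MET, 7.94 ± 0.47 CPM in NFE2L2_MET and 3.20 ± 1.21 CPM in WT (SD, n = 3 each), and so was high in the group with all 3 transgenes, with a wide spread there. Glud1 averaged 1595 ± 55.7 CPM in CTNNB1_NFE2L2_MET, 982 ± 13.2 CPM in CTNNB1_NFE2L2, 1568 ± 66.5 CPM in CTNNB1_MET, 913 ± 86.4 CPM in NFE2L2_MET and 1137 ± 170 CPM in WT, with its high levels in the groups that join S45Y-CTNNB1 and hMET. Both are singled out after their values were seen. The profiles that came after Nxpe2 in nearness to Rhbg were those of Mki67 (0.64), Tnfrsf19 (0.71), Stmn1 (0.77) and Pttg1 (0.78), of which Mki67, Stmn1 and Pttg1 are genes of dividing cells, given as a description over the 15 libraries.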
